A study of Homo sapiens with 8 samples.

Results

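Keratin mRNA was followed in colorectal cancer cells that had lost part of their UHRF1. The members were all genes of the expression tables named KRT followed by a number and, for some, a letter from A to C, which takes in the type I and type II keratins and leaves out pseudogenes and keratin-associated proteins. They numbered 55 of 60649 gene identifiers, all protein-coding, and comprised 5 simple, 18 stratified, 6 other epithelial, 9 inner root sheath and companion layer, and 17 hair keratins. HCT116 is a human colorectal cancer cell line. UF1hypo is a clone of HCT116 in which 1 allele of UHRF1 was knocked out by removal of an exon, and only that clone represents the heterozygous state here. Each line was transduced with lentivirus carrying either a control hairpin, labelled shScr, or one that targets UHRF1, labelled shUHRF1, and stable pools were harvested. PolyA RNA was sequenced from 2 libraries of each of the 4 groups: HCT116 or UF1hypo, each with shScr or with shUHRF1. Whether the 2 libraries of a group came from separate cultures is not stated, so the p-values measure the spread between these libraries, which may be technical.

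Keratins are the intermediate filament proteins of epithelial cells. A filament forms only from an acidic type I and a basic type II keratin, and the expressed pair marks the kind of epithelium. KRT8 with KRT18 or KRT19 fills simple epithelia such as the intestinal lining, KRT20 is a keratin of differentiated intestinal cells, KRT5 and KRT14 mark the basal layer of stratified epithelia, and the hair keratins build the hair shaft. UHRF1 binds hemimethylated DNA and helps to copy DNA methylation when DNA is replicated.

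UHRF1 was measured first as a check of the groups. Its TPM (transcripts per 1000000, a level corrected for transcript length) was 87.5 and 98.4 in HCT116 shScr, 31.7 and 32.7 there with shUHRF1, 47.3 and 50.6 in UF1hypo shScr, and 34.1 and 21.1 there with shUHRF1. The level was lower in both libraries of each knockdown than in their controls, although UHRF1 was not called by the test used below in either line (log2 fold change −1.50 ± 0.22, limma adjusted p = 0.056 in HCT116; −0.84 ± 0.22, adjusted p = 0.041 but under the fold required in UF1hypo). Fitted to the 4 HCT116 libraries alone, UHRF1 was called lower there (adjusted p = 1.0e-04). Of the colon epithelium markers, EPCAM, CDH1 and CDX2 were above 1 TPM in every library, while VIL1, CDX1, LGALS4 and CDH17 never were. Depth was 5.42 to 7.83 gigabases of aligned sequence per library. The difference between the 2 UF1hypo shUHRF1 libraries followed the GC content of transcripts, with a Spearman correlation of 0.814 over 13781 genes, which are not independent replicates. Between replicates 1 and 2 of UF1hypo shScr the correlation was −0.508, and it was −0.042 and −0.068 in the HCT116 groups. The 28 keratins above 1 TPM had a median transcript GC content of 56.7% against 50.1% over all genes, and 22 of them were higher in replicate 1 than in replicate 2 of UF1hypo shUHRF1, against 47.1% of all genes.

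The keratin repertoire was small in HCT116 and larger in UF1hypo shUHRF1. Of the 55 members, 12 were listed at 0 in every library, 15 were above 0 but never above 1 TPM, and 28 exceeded 1 TPM in at least 1 library. Keratins above 1 TPM numbered 13 and 13 in HCT116 shScr, 12 and 13 there with shUHRF1, 18 and 16 in UF1hypo shScr, and 27 and 25 there with shUHRF1. The lowest keratin to pass 1 TPM was KRT38, with a highest value of 1.04, and the highest not to pass was KRT37, at 0.499. The 12 keratins listed at 0 throughout included KRT1 and KRT2 of the upper epidermis, KRT6C, KRT24, KRT76, KRT77 and KRT84. None of the 9 inner root sheath and companion layer keratins exceeded 0.201 TPM in any library. Read counts were not used, so how many reads lie behind a value is not given, and a gene at 0 is described as listed at 0.

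**Figure D1:**
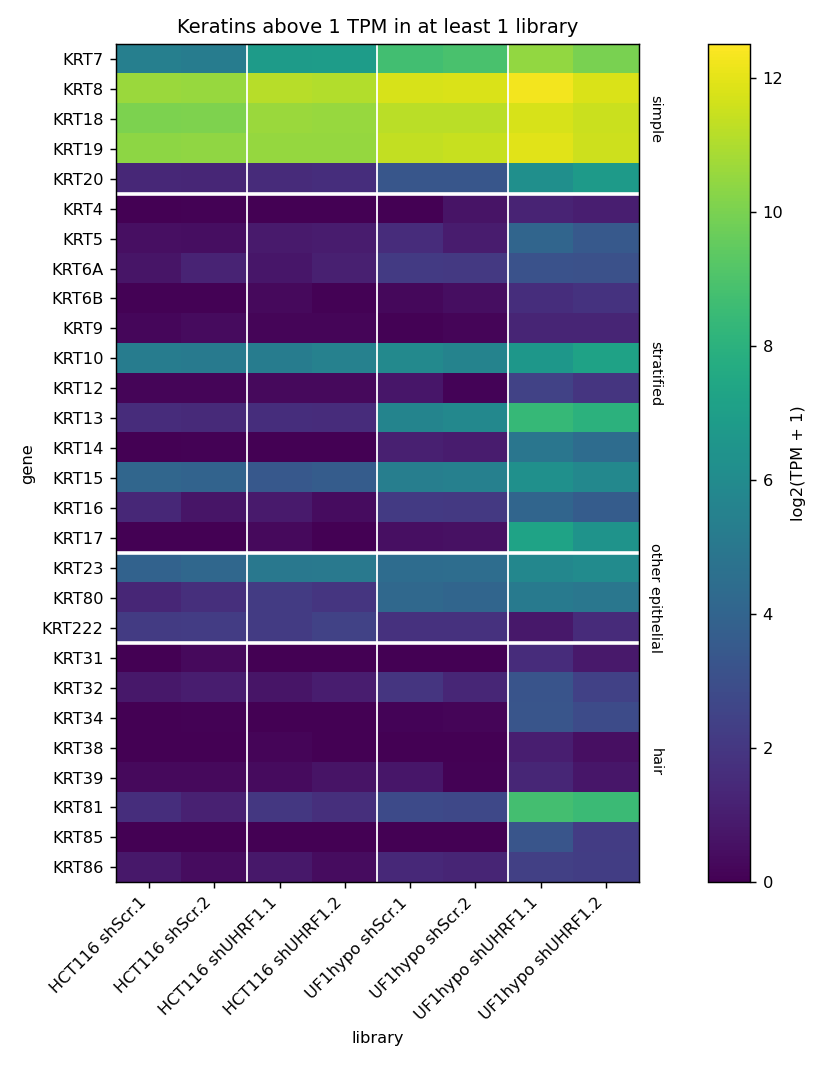
Level of the 28 keratins above 1 TPM in at least 1 library, as log2(TPM + 1) on a colour scale, with genes in rows by class and the 8 libraries in columns. KRT8, KRT18 and KRT19 were high in every library, and many stratified and hair keratins were brightest in the 2 UF1hypo shUHRF1 columns, such as KRT17 at 149.7 and 83.4 TPM.

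KRT8, KRT19 and KRT18 were the 3 most abundant keratins in every group. Summed over all 55 members, keratin TPM was 4061 and 4098 in HCT116 shScr, 5463 and 5351 there with shUHRF1, 9018 and 9387 in UF1hypo shScr, and 15196 and 11606 there with shUHRF1. That is 0.406% and 0.410% of the library in HCT116 shScr and 1.52% and 1.16% in UF1hypo shUHRF1. KRT8, KRT18 and KRT19 together made up 96.9% and 97.1% of keratin TPM in HCT116 shScr, 96.1% and 95.8% there with shUHRF1, 93.0% and 92.6% in UF1hypo shScr, and 81.7% and 81.1% there with shUHRF1. The ratio of type I to type II keratin TPM stayed between 1.18 and 1.59 in the 8 libraries. In bulk RNA, fewer cells of a kind and less RNA per cell cannot be told apart, so these levels are means over all cells of a pool.

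In TPM the 5 simple keratins had the widest range between groups, from 3999 ± 29.1 (SD, n = 2 libraries, as for each mean here) in HCT116 shScr to 12221 ± 2395 in UF1hypo shUHRF1. As a ratio of the highest to the lowest group mean, the hair class ranged most (112), followed by the stratified (11.97) and other epithelial (4.37) classes, while the ratio was 3.06 for the simple class. The 18 stratified keratins summed to 55.5 ± 4.51 TPM in HCT116 shScr, 56.4 ± 5.23 there with shUHRF1, 157 ± 1.18 in UF1hypo shScr and 665 ± 90.8 there with shUHRF1. The 17 hair keratins summed to 3.76 ± 0.625, 5.08 ± 0.966, 10.7 ± 1.90 and 423 ± 57.0 TPM in the same order of groups. Most of the hair sum in UF1hypo shUHRF1 was KRT81, at 394 ± 46.7 TPM. The 6 other epithelial keratins summed to 21.2 ± 2.53, 38.9 ± 0.345, 40.2 ± 0.701 and 92.6 ± 4.35 TPM.

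**Figure D2:**
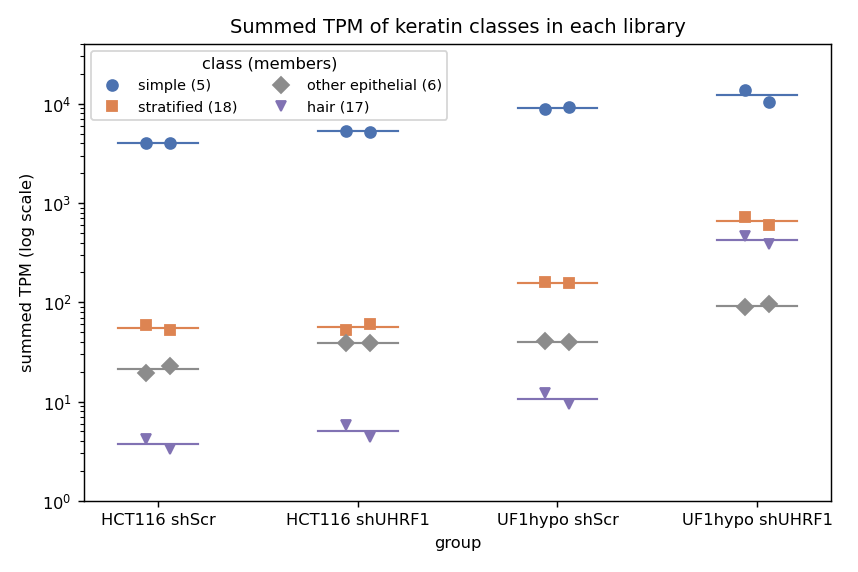
Summed TPM of 4 keratin classes in each library on a log axis, with 1 point per library and a line at the group mean. Hair keratins lay between 3.32 and 12.1 TPM in the first 3 groups and at 463 and 382 TPM in UF1hypo shUHRF1, and the simple class was the highest in every library.

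On UHRF1 knockdown in UF1hypo, some keratins of each of the 4 classes with tested members were called higher, and none was called lower. The fold change is the difference of mean log2(TPM + 1), and so it understates changes at low TPM. A gene was called when its Benjamini-Hochberg adjusted p from limma, taken over all tested protein-coding genes, was below 0.05 and it changed by more than 1 on the log2 scale. Of 28 keratins tested, 18 were called higher and 0 lower, where 7.39% of 13620 tested genes were called higher and 1.14% lower. The median log2 fold change was 1.22 over the tested keratins and 0.04 over all tested genes. By class, 2 of 5 simple, 10 of 12 tested stratified, 1 of 3 tested other epithelial and 5 of 8 tested hair keratins were called. Among the 18 keratins already above 1 TPM in a UF1hypo shScr library, 11 were called, and the matching share over all genes is not given. Another 10 passed the filter only through shUHRF1 libraries and so had to be higher there. Of these, 7 were called: KRT6B, KRT9, KRT12, KRT17, KRT31, KRT34 and KRT85. After correction for GC content and transcript length the count was 17, where 6.49% of all genes were called higher. Without UF1hypo shUHRF1 replicate 1 the count and that share both fell. Without replicate 2 the count did not change, though its members did, while the share of all genes rose. The test uses 1 spread for all groups, whereas the UF1hypo shUHRF1 libraries differed from each other by a median of 0.453 on the log2 scale over 13781 genes, against 0.117 to 0.161 in the other groups. In simulated data of that kind the test called more unchanged genes than its threshold allows, so adjusted p-values of comparisons with that group may be too small. Fitted to the 4 UF1hypo libraries alone, it called 12, without KRT6A, KRT9, KRT10, KRT12, KRT31 and KRT32, and 3.79% of all genes higher.

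The promoter windows of 4 called keratins are shown because these changed most among the 9 called members with a window in the RefSeq promoter table used here, build GRCh38.p14. That table was without a window for the other 9 called members, KRT6A, KRT6B, KRT7, KRT13, KRT14, KRT16, KRT17, KRT23 and KRT81, which include the keratins with the largest changes of all, KRT17 and KRT81. Each runs 5′ to 3′ from 250 bases before to 50 bases after the RefSeq start, in lower case with every CG dinucleotide, the target of DNA methylation, in capitals.
KRT20, chr17:40885193-40885492, minus strand: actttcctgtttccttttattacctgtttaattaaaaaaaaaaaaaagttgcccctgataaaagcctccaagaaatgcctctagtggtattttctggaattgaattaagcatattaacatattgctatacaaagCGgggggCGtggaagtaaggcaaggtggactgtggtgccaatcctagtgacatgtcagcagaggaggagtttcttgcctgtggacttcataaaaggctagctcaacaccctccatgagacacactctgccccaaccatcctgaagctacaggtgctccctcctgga
KRT34, chr17:41382257-41382556, minus strand: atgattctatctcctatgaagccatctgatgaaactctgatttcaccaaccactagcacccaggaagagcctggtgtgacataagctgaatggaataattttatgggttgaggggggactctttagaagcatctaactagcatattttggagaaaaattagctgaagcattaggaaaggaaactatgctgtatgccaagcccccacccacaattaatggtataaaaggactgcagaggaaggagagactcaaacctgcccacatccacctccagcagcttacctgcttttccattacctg
KRT85, chr12:52367432-52367731, minus strand: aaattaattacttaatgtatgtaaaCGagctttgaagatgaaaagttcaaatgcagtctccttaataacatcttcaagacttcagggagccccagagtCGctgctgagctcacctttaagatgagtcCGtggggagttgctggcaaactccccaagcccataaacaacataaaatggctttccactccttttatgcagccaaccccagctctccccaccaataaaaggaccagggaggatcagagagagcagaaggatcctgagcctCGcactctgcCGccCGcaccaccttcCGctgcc
KRT5, chr12:52520345-52520644, minus strand: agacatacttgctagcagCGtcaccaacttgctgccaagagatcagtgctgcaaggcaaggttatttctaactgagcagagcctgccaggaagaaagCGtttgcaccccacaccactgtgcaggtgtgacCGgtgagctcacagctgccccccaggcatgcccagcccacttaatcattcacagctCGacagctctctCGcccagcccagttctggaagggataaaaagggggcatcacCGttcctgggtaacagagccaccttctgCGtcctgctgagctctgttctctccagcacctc
These windows held 2, 0, 7 and 7 CG dinucleotides in the order printed, and the start used for KRT5 lies 136 bases from the gene start in the expression tables. A window was found for 34 of the 55 keratins. Their CG count had a median of 2 and ranged from 0 to 8, against a median of 14 over all 35116 windows, of which 58.4% held more than 8. At least 1 CG was present in 30 of the 34 keratin windows and in 96.0% of all windows. The 9 called keratins with a window had a median of 2 (0 to 8), and so had the 21 that were too low to test. The letters TATAAA, searched on both strands, occurred in 20 of the 34 keratin windows, in 3 of the 9 called ones and in 11.5% of all windows. KRT34 held them, and KRT20, KRT85 and KRT5 did not. A match describes the letters of these windows and is no measure of binding or methylation.

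Among the simple keratins, KRT20 and KRT7 rose and the 3 abundant members did not pass the test. KRT20, of differentiated intestinal cells, had TPM values of 1.66 and 1.56 in HCT116 shScr, 1.88 and 2.11 there with shUHRF1, 9.28 and 9.06 in UF1hypo shScr, and 75.01 and 111 there with shUHRF1. The groups of UF1hypo did not overlap, and KRT20 increased by 3.18 ± 0.23 on the log2 scale (± SE, as for each fold change here; limma adjusted p = 7.5e-05). KRT7, a type II keratin of glandular and ductal epithelia, was at 41.7 and 37.0 TPM in HCT116 shScr, 115 and 120.5 there with shUHRF1, 415 and 479 in UF1hypo shScr, and 1429 and 1003 there with shUHRF1. Each step of that series was separated from the one before, and the knockdown in UF1hypo increased it by 1.42 ± 0.19 (adjusted p = 0.0019). KRT8 was at 3453 and 3499 TPM in UF1hypo shScr and at 5035 and 3525 there with shUHRF1, a log2 difference of 0.28 ± 0.17 (adjusted p = 0.33). KRT18, its type I partner, differed by 0.43 ± 0.12 (adjusted p = 0.055), and KRT19, a type I keratin with almost no tail domain, by 0.33 ± 0.16 (adjusted p = 0.22). For these 3 keratins replicate 1 of UF1hypo shUHRF1 was the highest of the 8 libraries.

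Of the keratins of the basal layer and of wounded or rapidly dividing epidermis, KRT5, KRT6A, KRT6B, KRT14, KRT16 and KRT17 rose from low levels in UF1hypo, while KRT15 was not called and KRT6C was listed at 0. KRT17, a type I keratin of skin appendages and wounds, was listed at 0 in both HCT116 shScr libraries, at 0.233 and 0 TPM there with shUHRF1, at 0.406 and 0.484 in UF1hypo shScr, and at 149.7 and 83.4 there with shUHRF1. Its log2 change with shUHRF1 in UF1hypo, 6.29 ± 0.29 (limma adjusted p = 6.9e-06), was the largest among the keratins. KRT17 passed the filter only through UF1hypo shUHRF1, so its direction was built in, as for KRT6B below. KRT14, the type I keratin of the basal layer, was at 0 and 0.0531 TPM in HCT116 shScr, 0.0169 and 0 there with shUHRF1, 1.13 and 0.941 in UF1hypo shScr, and 28.5 and 20.1 there with shUHRF1. It rose by 3.62 ± 0.22 (adjusted p = 3.3e-05). KRT5, its type II partner, was at 0.405 and 0.364, 0.874 and 0.917, 2.04 and 0.925, and 16.1 and 10.2 TPM in the same order of groups. The basal pair was thus high in the same libraries, and KRT5 rose by 2.51 ± 0.29 (adjusted p = 9.7e-04). KRT16, which accompanies KRT6 in wounded epidermis, was at 3.30 and 3.27 TPM in UF1hypo shScr and at 15.6 and 11.3 there with shUHRF1, a rise of 1.74 ± 0.29. KRT6A was at 3.32 and 3.23 TPM in UF1hypo shScr and at 7.78 and 7.53 there with shUHRF1, and rose by 1.02 ± 0.24 (adjusted p = 0.028). That call was lost in 10 of 15 alternatives. KRT6B rose by 1.37 ± 0.20, from 0.224 and 0.366 to 2.09 and 2.59 TPM, a call that was lost with FPKM in place of TPM. KRT6A and KRT6B share 26.2% and 34.6% of their 75-base stretches with other genes, mostly with each other and KRT6C, so reads could be divided among them.

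Of the keratins of upper and mucosal layers, KRT13 reached the highest level. KRT13, the type I keratin of moist mucosa, was at 2.03 and 1.84 TPM in HCT116 shScr, 2.11 and 2.02 there with shUHRF1, 49.5 and 56.6 in UF1hypo shScr, and 327 and 258 there with shUHRF1. It rose by 2.43 ± 0.19 on knockdown in UF1hypo (limma adjusted p = 1.2e-04), while KRT4, its usual type II partner, was at 0 and 0.605 and then at 1.34 and 1.06 TPM (0.79 ± 0.25, adjusted p = 0.074). KRT10, the type I keratin of the upper epidermis, was at 36.8 and 32.8 TPM in HCT116 shScr, 37.5 and 43.7 there with shUHRF1, 57.6 and 47.3 in UF1hypo shScr, and 97.6 and 146 there with shUHRF1. It rose by 1.18 ± 0.22 (adjusted p = 0.0095), and KRT1, the type II keratin that it pairs with in skin, was listed at 0 in every library. The KRT10 call was lost in the 4 UF1hypo libraries alone, without UF1hypo shScr replicate 2 and without UF1hypo shUHRF1 replicate 2, and its adjusted p reached 0.0885 at most over the alternatives. KRT12, of the cornea, rose by 1.75 ± 0.27, from 0.694 and 0.0868 to 4.47 and 2.81 TPM. KRT9, of palms and soles, rose by 1.19 ± 0.19, from 0.0461 and 0.116 to 1.46 and 1.49 TPM (adjusted p = 0.0042 for both). KRT12 and KRT9 passed the filter only through UF1hypo shUHRF1, so their direction was built in. Both calls were lost in the 4 UF1hypo libraries alone (adjusted p = 0.052 and 0.060). KRT15, of the basal layer and hair bulge, was at 39.9 and 42.6 TPM in UF1hypo shScr and 76.9 and 56.1 there with shUHRF1, a log2 difference of 0.66 ± 0.20 (adjusted p = 0.068).

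Of the 17 hair keratins, KRT31, KRT32, KRT34, KRT81 and KRT85 rose from low values, 3 did not pass the test and 9 were too low to test. KRT81 was far above the others. KRT35, too low to test, was at 0.108 and 0.250 TPM in UF1hypo shScr and listed at 0 in both libraries there with shUHRF1. KRT81, a type II keratin of the hair cortex, was at 2.16 and 1.21 TPM in HCT116 shScr, 3.10 and 2.22 there with shUHRF1, 5.94 and 5.46 in UF1hypo shScr, and 427 and 361 there with shUHRF1. It rose by 5.88 ± 0.24 (limma adjusted p = 4.8e-06), which took it from rank 11 to rank 5 among the keratins of UF1hypo by mean TPM. KRT81 shares 36.6% of its 75-base stretches with other genes, mainly KRT86 and the pseudogene KRT87P, and lies within the annotated span of KRT86 on the other strand. KRT86 was at 1.69 and 1.45 TPM in UF1hypo shScr and 4.09 and 3.77 there with shUHRF1 (0.94 ± 0.23, adjusted p = 0.030, under the fold required). KRT34, a type I cortex keratin, was at 0 and 0.0581 TPM in HCT116 shScr, 0 and 0 there with shUHRF1, 0.106 and 0.133 in UF1hypo shScr, and 8.74 and 6.16 there with shUHRF1. KRT85, a type II keratin of the hair matrix, was listed at 0 in 5 of the 6 libraries outside UF1hypo shUHRF1, at 0.0101 TPM in UF1hypo shScr replicate 2, and at 8.72 and 3.61 in UF1hypo shUHRF1. They rose by 2.90 ± 0.21 (adjusted p = 8.6e-05) and 2.74 ± 0.32 (adjusted p = 0.0011). KRT31, of the cortex, was at 2.05 and 0.823 TPM in UF1hypo shUHRF1, against listed values of 0 in both UF1hypo shScr libraries (1.24 ± 0.27, adjusted p = 0.019). It passed the filter only through UF1hypo shUHRF1, so its direction was built in, as for KRT34 and KRT85. KRT32, of the hair cuticle, was at 2.78 and 1.57 and then at 8.59 and 4.29 TPM (1.19 ± 0.32, adjusted p = 0.044). The KRT32 call was lost in 13 of 15 alternatives and the KRT31 call in 6 of 14, among them the fit without UF1hypo shUHRF1 replicate 1 for both. KRT38 and KRT39, at 1.04 and 0.437 and at 1.51 and 0.700 TPM in UF1hypo shUHRF1, were not called.

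The remaining keratins behaved differently from each other. KRT23, a type I keratin found in some gastrointestinal tumours, was at 14.4 and 17.1 TPM in HCT116 shScr, 31.6 and 31.8 there with shUHRF1, 20.3 and 21.1 in UF1hypo shScr, and 54.9 and 64.1 there with shUHRF1. It rose by 1.47 ± 0.17 in UF1hypo (limma adjusted p = 0.0011). KRT80, a type II keratin found in many epithelia, was at 18.0 and 16.1 TPM in UF1hypo shScr and 33.7 and 29.6 there with shUHRF1, a log2 difference of 0.86 ± 0.21 (adjusted p = 0.032) under the fold required. KRT222, a divergent keratin-like gene, had the only negative value among the keratins tested in UF1hypo, −0.61 ± 0.27 (adjusted p = 0.19). It was at 2.39 and 2.40 TPM in shScr and at 0.724 and 1.89 in shUHRF1. KRT222 shares 35.6% of its 75-base stretches with another gene on the same strand, so reads could be divided between them.

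With the same hairpin in parental HCT116, 1 keratin was called. Of 14 keratins tested, KRT7 was called higher and 0 were called lower, where 0.0472% of 12704 tested genes were called higher and 0.0236% lower. KRT7 rose by 1.56 ± 0.19 (limma adjusted p = 0.038), with both shUHRF1 libraries near 3 times the level of the controls (ratio of means 2.99). The call was lost in 9 of 15 alternatives, while the fold change stayed between 1.47 and 1.64 throughout. Those 9 included the omission of any 1 of the 4 HCT116 libraries or of either UF1hypo shScr library. Each of these omissions left almost no gene of any kind called. KRT23 had the next largest value, 0.97 ± 0.17 (adjusted p = 0.11). KRT8 and KRT18 differed by 0.50 ± 0.17 (adjusted p = 0.51) and 0.52 ± 0.12 (adjusted p = 0.27), and both shUHRF1 libraries lay above both controls for each. KRT15 had the lowest value, −0.52 ± 0.20 (adjusted p = 0.65), with 16.8 and 14.8 TPM in shScr and 9.82 and 11.5 in shUHRF1. The spread shared with the UF1hypo shUHRF1 libraries, which differed most from each other, also enters these p-values. Fitted to the 4 HCT116 libraries alone, 0.401% of all genes were called higher, KRT7 remained the 1 keratin called (adjusted p = 8.4e-05), and KRT23, KRT8 and KRT18 had adjusted p = 0.0028, 0.0034 and 0.0027 but stayed under the fold required. Without either UF1hypo shUHRF1 library the share of all genes was 0.488% or 0.496%. The median log2 fold change was 0.21 over the 14 keratins and −0.03 over all tested genes.

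**Figure D3:**
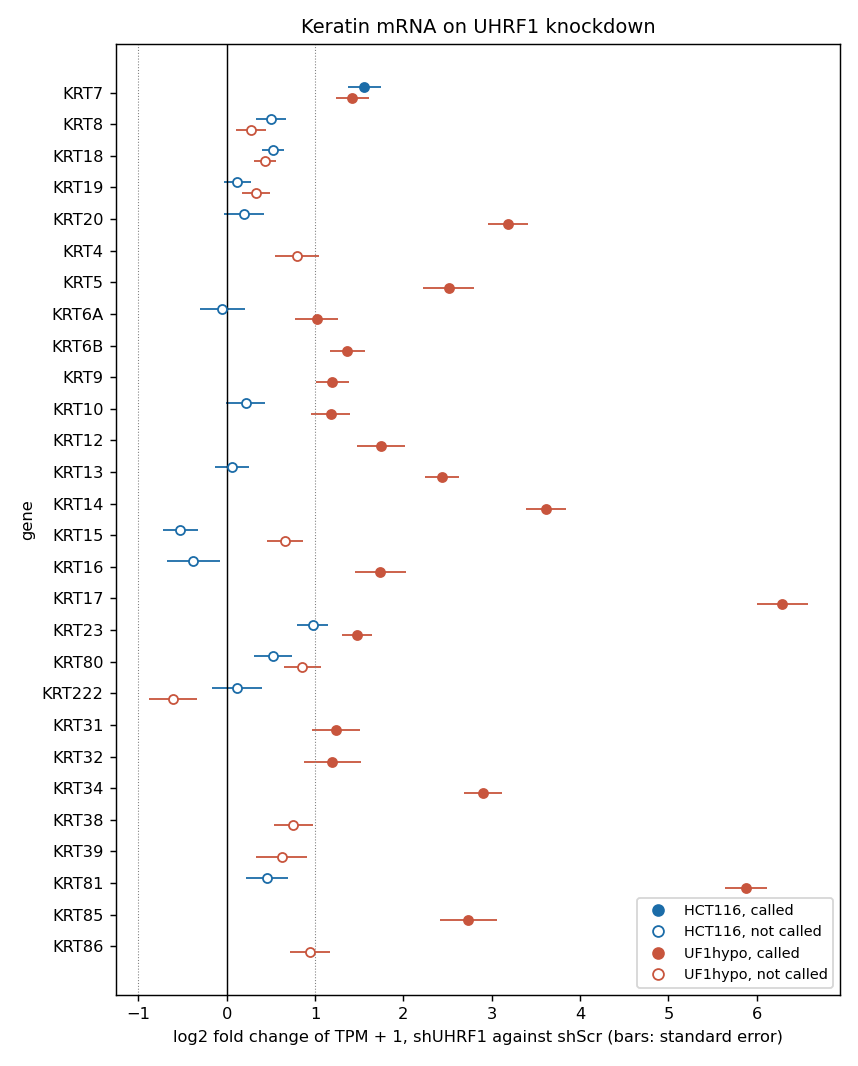
Log2 fold change (TPM + 1) of each keratin on UHRF1 knockdown in HCT116 (blue) and UF1hypo (red), with bars of 1 standard error, filled where called and open where not. KRT7 was filled in both lines at 1.56 and 1.42, whereas KRT17 and KRT81 stood at 6.29 and 5.88 in UF1hypo, and KRT17 is absent in HCT116 because it did not exceed 1 TPM there.

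Whether the knockdown acted differently in the 2 lines was tested directly. Of 28 keratins, 11 had a larger effect in UF1hypo and 0 a smaller one by the same thresholds, where 4.54% of 13781 genes were called higher and 0.559% lower. The 11 were KRT17, KRT81, KRT14, KRT20, KRT34, KRT85, KRT13, KRT16, KRT5, KRT9 and KRT6B, with differences from 6.14 ± 0.41 (KRT17, limma adjusted p = 1.8e-04) down to 1.23 ± 0.29 (KRT6B, adjusted p = 0.046). KRT17, KRT34, KRT85, KRT9 and KRT6B exceeded 1 TPM only in UF1hypo shUHRF1, so they entered the test only through the group where they are high and their direction was built in by the filter, as for 5 uncalled members. Among the 18 keratins above 1 TPM in another group too, 6 were called: KRT5, KRT13, KRT14, KRT16, KRT20 and KRT81. The matching share over all genes is not given here either. The simple keratins KRT7, KRT8, KRT18 and KRT19 had differences of −0.14 ± 0.26, −0.22 ± 0.24, −0.09 ± 0.18 and 0.21 ± 0.22 (adjusted p from 0.70 to 0.86), which does not show equal effects. The count fell to 6 or 7 when any 1 library other than those of UF1hypo shUHRF1 was omitted, and was 13 without UF1hypo shUHRF1 replicate 1 and 16 without replicate 2, of which 15 were higher. The share of all genes called higher moved with it, to 1.11% to 1.80% in the former omissions and to 6.44% and 9.98% in the latter. KRT13, KRT14, KRT17, KRT20, KRT34 and KRT81 kept their call under every alternative run.

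The clone itself differed from its parent in keratins, with the control hairpin in both. Of 18 keratins tested in UF1hypo shScr against HCT116 shScr, 10 were called higher and 0 lower, where 2.59% of 12856 genes were called higher and 0.949% lower. All 5 simple keratins were among them. After correction for GC content and transcript length 8 were called, without KRT18 (0.98) and KRT19 (0.82), where 2.71% of all genes were called higher. KRT7 was higher by 3.47 ± 0.19 (limma adjusted p = 3.0e-05), KRT20 by 1.96 ± 0.23 (adjusted p = 0.0019), KRT8 by 1.16 ± 0.17 (adjusted p = 0.0054), KRT18 by 1.14 ± 0.12 (adjusted p = 0.0014) and KRT19 by 1.02 ± 0.16 (adjusted p = 0.0072). KRT8 was at 1565 and 1539 TPM in HCT116 shScr against 3453 and 3499 in UF1hypo shScr, KRT18 at 1055 and 1072 against 2324 and 2353, and KRT19 at 1316 and 1370 against 2607 and 2841. The groups were separate for each of these genes. The largest difference was that of KRT13, 4.20 ± 0.19 (adjusted p = 1.2e-05), and KRT80, KRT81, KRT15 and KRT6A were higher by 2.64 ± 0.21, 1.34 ± 0.24, 1.33 ± 0.20 and 1.13 ± 0.25. KRT80 was at 1.58 and 2.24 TPM in HCT116 shScr and at 18.0 and 16.1 in UF1hypo shScr. The count fell when any HCT116 shScr or UF1hypo shScr library was omitted, and so did the share of all genes called higher. KRT7, KRT13, KRT20 and KRT80 kept their call throughout. That of KRT6A was lost in 10 of 15 alternatives, KRT19 in 5, KRT8 and KRT15 in 4, KRT81 in 3 and KRT18 in 1. With 1 clone, the missing allele and other traits of that clone cannot be told apart.

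The clone and the knockdown within it share the UF1hypo shScr libraries, so their log2 values are set side by side only, the clone first. They were 4.20 and 2.43 for KRT13, 3.47 and 1.42 for KRT7, 2.64 and 0.86 for KRT80, and 1.96 and 3.18 for KRT20. For KRT81 they were 1.34 and 5.88, for KRT15 1.33 and 0.66, and for KRT6A 1.13 and 1.02. The abundant KRT8, KRT18 and KRT19 had 1.16 and 0.28, 1.14 and 0.43, and 1.02 and 0.33. Keratins tested in both but called only on knockdown had larger values there, which follows in part from that choice. They were 0.81 and 2.51 for KRT5, 0.57 and 1.18 for KRT10, and 0.99 and 3.62 for KRT14. For KRT16 they were 1.06 and 1.74, for KRT23 0.38 and 1.47, and for KRT32 0.75 and 1.19. KRT6B, KRT9, KRT12, KRT17, KRT31, KRT34 and KRT85, called on knockdown in UF1hypo, were too low to test in the clone.

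The keratin genes lie in a pair of clusters. The 27 members on chromosome 12 span chr12:52168996-52952906 (GRCh38), 783.911 kb, and hold the type II genes and KRT18. The 28 on chromosome 17 span chr17:40654665-41624842, 970.178 kb. On knockdown in UF1hypo, 6 of 11 tested members on chromosome 12 and 12 of 17 on chromosome 17 were called, all higher, against 7.39% of all tested genes called higher. Of these, 2 on chromosome 12 and 5 on chromosome 17 passed the filter only through shUHRF1 libraries. Called genes stood beside genes that were too low to test in both clusters. On chromosome 12, KRT81 and KRT85 were called while KRT83, which lies between them, never exceeded 0.272 TPM. On chromosome 17, the 4 neighbours KRT9, KRT14, KRT16 and KRT17 at 1 end of the cluster were all called, whereas KRT25 to KRT28 near the other end never exceeded 0.0918 TPM. KRT8 and KRT18 overlap at their ends on opposite strands, and 21.9% of the 75-base stretches of KRT18 are also found in KRT8. Whether the reads were assigned by strand is not stated.

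**Figure D4:**
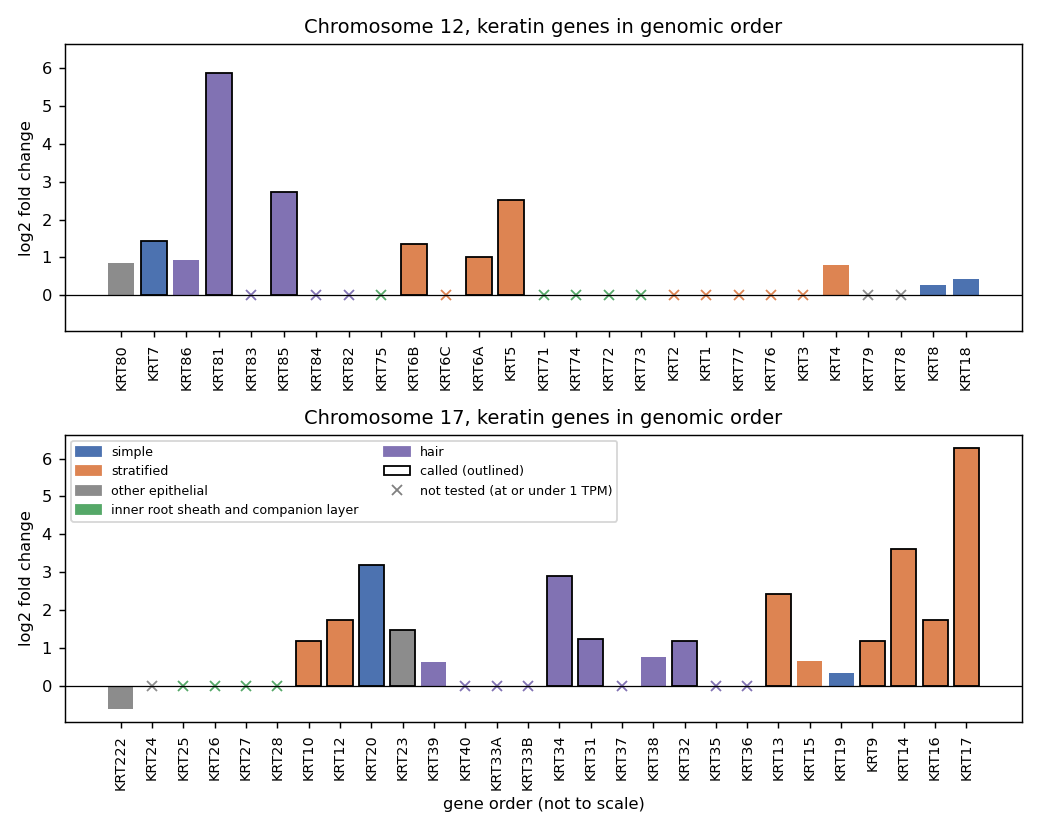
Response to UHRF1 knockdown in UF1hypo (log2 fold change of TPM + 1) for the keratin genes in genomic order on chromosomes 12 and 17, coloured by class, with called genes outlined and genes too low to test marked by a cross. The outlined bars number 6 on chromosome 12 and 12 on chromosome 17 and stand among crosses, and KRT17 at 6.29 is the last gene of its cluster.

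Genes whose proteins bind or anchor keratins were described alongside. Of 14 partners, such as plectin (PLEC), the desmosomal linker desmoplakin (DSP) and plakoglobin (JUP), 11 were tested and 0 were called by limma in any of the 4 comparisons. At an unadjusted p under 0.05, they numbered 0 on knockdown in HCT116, 5 on knockdown in UF1hypo, 4 in the difference and 4 in the clone, where 6.38%, 27.4%, 18.5% and 18.2% of all tested genes passed that threshold. On knockdown in UF1hypo their log2 fold changes ranged from −0.48 to 0.85 with a median of 0.36. Of 15 other intermediate filament genes, 10 were tested on knockdown in UF1hypo and 4 were called, all higher, against 7.39% of all genes called higher and 1.14% lower. VIM, the intermediate filament of mesenchymal cells, was at 2.45 and 1.82 TPM in HCT116 shScr, 15.0 and 11.7 there with shUHRF1, 1.48 and 0.700 in UF1hypo shScr, and 44.6 and 27.6 there with shUHRF1. It rose by 4.14 ± 0.30 in UF1hypo (adjusted p = 8.1e-05), and its effect was larger there than in HCT116 by 1.95 ± 0.42 (adjusted p = 0.038). DES of muscle and NES of neural progenitors rose by 1.18 ± 0.24 and 1.19 ± 0.19 in UF1hypo. NEFH of neurons, called at 1.03 ± 0.18, was at 0.0991 and 0.0394 TPM in UF1hypo shScr and 1.12 and 1.24 there with shUHRF1, so it was tested only through the group where it is high and its direction was built in by the filter.

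Markers of other cell types moved with some of these groups. Of the 5 keratinocyte markers that are no keratins, TP63, DSG3 and DSG1 never exceeded 1 TPM, and TP63 was at 0.286 and 0.309 TPM in UF1hypo shUHRF1. The summed TPM of the 5 was 10.1 and 9.89 in HCT116 shScr, 17.2 and 15.3 there with shUHRF1, 14.7 and 14.6 in UF1hypo shScr, and 24.4 and 22.3 there with shUHRF1, most of it COL17A1. In the clone COL17A1 was called higher (1.25 ± 0.18) and DSC3 lower (−1.93 ± 0.21; limma adjusted p = 0.0059 and 0.0015). Of 6 fibroblast and 6 leukocyte markers, 5 each never exceeded 1 TPM, and the exceptions were COL1A1 and CD68. The fibroblast sum was 21.2 to 28.9 TPM in the first 3 groups and 66.2 and 38.3 in UF1hypo shUHRF1. CD68, a lysosomal protein used as a macrophage marker, was at 12.2 and 13.7, 6.27 and 7.30, 40.6 and 42.6, and 107 and 77.7 TPM in the 4 groups. It was called higher in UF1hypo on knockdown (1.11 ± 0.20) and in the clone (1.61 ± 0.20). Its knockdown effect was also called larger in UF1hypo than in HCT116 (1.95 ± 0.28, limma adjusted p = 0.0078). Of the 3 tested colon epithelium markers, CDH1, of epithelial junctions, had a larger effect in UF1hypo by 1.14 ± 0.21 (adjusted p = 0.020), and the differences of EPCAM and CDX2 were −0.28 ± 0.34 and 0.25 ± 0.24 (adjusted p = 0.75 and 0.67). On knockdown in UF1hypo, CDH1 went from 58.7 and 52.8 to 102 and 112 TPM (0.93 ± 0.15, adjusted p = 0.0048, under the fold required) and CDX2, an intestinal transcription factor, from 13.7 and 13.8 to 18.3 and 16.9 TPM (0.33 ± 0.17, adjusted p = 0.26). EPCAM, an epithelial surface protein, went from 357 and 327 to 174 and 314 TPM (−0.55 ± 0.24, adjusted p = 0.19). The part of these genes or of the GC difference between libraries in the keratin values was not tested beyond the counts given.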

How the data were processed

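PolyA RNA of 8 libraries, 2 in each of 4 groups, was measured by paired-end sequencing. The authors trimmed, aligned to GRCh38 with HISAT2 2.0.4 and quantified genes with StringTie 2.1.4. The deposited TPM is scaled for length and to a total of 1000000 per library, the deposited FPKM for length and aligned bases, and the deposited coverage is the mean depth per base of a gene, from which the depth of each library was recovered. Read counts were not used, so DESeq2, which the study ran on counts, was replaced by limma 3.58.1 (R 4.3.3) on log2(TPM + 1), fitted to all 8 libraries with moderated variances that follow the mean (4 residual degrees of freedom). Protein-coding genes of GENCODE 44 above 1 TPM in at least 1 library of a comparison were tested. For 2 libraries against 2, an exact two-sided permutation p cannot fall below 0.33. Named genes were every keratin above 1 TPM in any library, called members of the lists (at most 6 per list by fold change) and UHRF1. The keratins, their classes and the gene lists were chosen with earlier results of these data known. A few untested keratins and uncalled list members are named to complete a pair or list, and were chosen after their values were seen. Shared sequence was the share of 75-base stretches of a gene's canonical transcript found in transcripts of other genes. Results were recomputed with a pseudocount of 0.1, with no TPM filter, in the 4 libraries of a comparison alone, with median-ratio scaling, with FPKM, with a GC content and length correction within 10 bins, with a block for the replicate number, and with each library omitted. Simulated data were used to check the fit, and the outcome stands beside the UF1hypo calls. Tables and figures were made with Python 3.11.15, numpy 2.4.6, pandas 2.3.3 and matplotlib 3.10.9.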

Additional observations from a re-analysis of the deposited data

Results flagged for a closer look

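Keratins responded to UHRF1 knockdown unequally in UF1hypo and HCT116. The test of the difference itself passed for 11 of 28, with a larger effect in UF1hypo, where 4.54% of all tested genes were called higher. For 5 of them, KRT6B, KRT9, KRT17, KRT34 and KRT85, that direction was built in by the filter, since they exceeded 1 TPM only in UF1hypo shUHRF1. On the log2 scale the difference was 6.14 for KRT17, 5.42 for KRT81, 3.64 for KRT14, 2.98 for KRT20, 2.94 for KRT34, 2.74 for KRT85, 2.37 for KRT13, 2.12 for KRT16, 2.06 for KRT5, 1.32 for KRT9 and 1.23 for KRT6B (limma adjusted p from 1.6e-04 to 0.046). Both UF1hypo shUHRF1 libraries lay above every other library for each of the 11, which were called for a larger effect there. This follows in part from that choice, so it adds no separate support, and the share over all genes is not given. With 2 libraries a group, outlying libraries could not be tested.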

How the results depend on the processing

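All called fold changes kept their sign under the 15 alternatives; for the 40 calls, 480 values kept the call and 106 lost it, and 18 values of uncalled keratins became calls. Where a library was left out, the lone library of its group was assumed to vary like the other groups. In UF1hypo the 18 called keratins became 12 in the 4 libraries alone and 13 with FPKM, where 3.79% and 4.93% of all genes were called higher. The count was at most 18 with a library left out. Of the 18, 11 were called under every alternative. In HCT116 the 1 call became 0 with no TPM filter, median-ratio scaling or the replicate block, where 0.0123%, 0.0157% and 0.00787% of all genes were called higher. It became 2 with the GC content and length correction, where that share was 0.417%. With a library left out it was kept or lost, depending on the library. The 11 calls in the difference became 8 with a pseudocount of 0.1, 14 with the GC content and length correction, and 6 to 16 with a library left out, and the 10 in the clone became 5 to 11. In the difference the share of all genes called higher fell from 4.54% to 2.82% with that pseudocount and rose to 5.64% with that correction. In the clone the share rose from 2.59% to 3.31% in the 4 libraries alone, where 11 keratins were called. It also rose there, to 2.71%, with the GC content and length correction, where 8 keratins were called. The cause was not tested. The replicate block gave 0, 17, 9 and 9 keratins in HCT116, UF1hypo, the difference and the clone. In the same order 0.00787%, 7.13%, 3.09% and 2.21% of all genes were called higher. The labels tie same-numbered libraries by the number alone, and whether they share a batch is not stated. Their replicate differences correlated between −0.402 and 0.0547 across groups, with −0.402 between UF1hypo shScr and UF1hypo shUHRF1. Signs turned only in uncalled values near 0. With a library left out, KRT6A in HCT116 ranged from −0.32 to 0.21 (0.12 without HCT116 shUHRF1 replicate 1), KRT222 there from −0.028 to 0.26, and the differences of KRT7 from −0.39 to 0.12, KRT8 from −0.48 to 0.033, KRT18 from −0.19 to 0.015 and KRT19 from −0.0051 to 0.43, with −0.037 for KRT19 after the GC content and length correction. No fit of a contrast's libraries alone exists for the difference. Without read counts, the counting error of keratins near 1 TPM was not estimated.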
